A study of Mus musculus with 6 samples.

Results

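The acute phase serum proteins described here are 10 genes of the 45777 in the expression table of a mouse liver RNA-seq study. They were chosen by symbol, with earlier results of these data known. They are the serum amyloid A genes Saa1, Saa2, Saa3 and Saa4, the orosomucoids Orm1 and Orm2, the lipocalin Lcn2, the haem and haemoglobin binders Hpx and Hp, and the pentraxin Apcs. The study compared liver tissue of C57BL/6 mice aged 10 weeks with and without the kinase Pak4 in hepatocytes. All mice carried Pak4 flox/flox alleles, so the control group, labelled WT, was floxed as well. The Pak4_KO group also carried Alb-Cre, a Cre recombinase under the albumin promoter, which is active in hepatocytes. The labels call this knockout hepatocyte-specific, and Pak4 in the other cells of the liver was not measured on its own. Each group held 3 libraries, and the labels do not say whether each came from its own animal, so the tests measure the spread between these libraries.

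The acute phase response is the change in plasma protein output that the liver makes during infection, injury or inflammation. Cytokines of the IL-6 family act on hepatocytes through STAT3, and IL-1 and TNF act through NF-kappaB. C/EBP factors bind the promoters of many of the same genes, and the proteins released bind lipid, iron carriers, haem or microbial surfaces.

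All 10 genes were expressed in all 6 libraries and were tested. Saa3, an inducible serum amyloid A made by macrophages and fat cells as well as by liver, was 3.53-fold higher in Pak4_KO, and it was the only gene of the 10 past the threshold of edgeR's quasi-likelihood test (adjusted p = 0.0439). Saa2 and Saa4 had lower values in every Pak4_KO library than in any WT library, without passing that threshold. For the other 7 genes, the values of the groups overlapped. The share of called genes was 1 of 10 in this set, against 0.469% of the 16197 genes tested in either direction and 0.265% called higher.

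The 4 serum amyloid A genes lie side by side on chromosome 7, in the order Saa3, Saa4, Saa1, Saa2, within 42316 bases of the mouse build GRCm38.p6 (positions 46711998 to 46754313). The gaps between neighbours measured 8.38, 7.89 and 8.65 kb. Pak4 itself lies on the same chromosome, 18.1 Mb away. The promoter sequences of these genes are given because the fold change of Saa3 was opposite in sign to those of its neighbours. They come from the RefSeq table of GRCm38.p6 and run from 250 bases before to 50 bases after the start that the table gives, which can be 1 of several starts of a gene. Capitals mark matches, on either strand, to TTNNGNAA, a C/EBP motif, or to GGNNTTTCC, an NF-kappaB motif.
Saa3 promoter, chr7:46715627-46715926, minus strand: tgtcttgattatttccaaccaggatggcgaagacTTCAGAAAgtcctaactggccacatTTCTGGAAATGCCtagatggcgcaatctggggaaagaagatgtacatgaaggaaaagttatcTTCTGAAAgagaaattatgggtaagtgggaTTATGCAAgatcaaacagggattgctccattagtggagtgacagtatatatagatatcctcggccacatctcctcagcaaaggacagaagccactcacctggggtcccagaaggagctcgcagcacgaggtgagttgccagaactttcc
Saa4 promoter, chr7:46732554-46732853, minus strand: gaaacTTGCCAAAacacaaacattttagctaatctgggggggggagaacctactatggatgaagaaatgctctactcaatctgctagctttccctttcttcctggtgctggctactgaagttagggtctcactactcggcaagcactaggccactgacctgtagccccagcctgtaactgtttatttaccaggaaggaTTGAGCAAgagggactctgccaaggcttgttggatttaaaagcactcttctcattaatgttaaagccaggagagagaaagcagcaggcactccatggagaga
Saa1 promoter, chr7:46742931-46743230, minus strand: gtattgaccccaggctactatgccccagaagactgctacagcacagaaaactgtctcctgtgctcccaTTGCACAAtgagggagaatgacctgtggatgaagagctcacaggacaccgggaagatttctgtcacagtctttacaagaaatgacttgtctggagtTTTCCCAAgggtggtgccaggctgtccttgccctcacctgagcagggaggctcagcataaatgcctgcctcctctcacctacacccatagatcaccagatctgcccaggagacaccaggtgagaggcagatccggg
Saa2 promoter, chr7:46751583-46751882, plus strand: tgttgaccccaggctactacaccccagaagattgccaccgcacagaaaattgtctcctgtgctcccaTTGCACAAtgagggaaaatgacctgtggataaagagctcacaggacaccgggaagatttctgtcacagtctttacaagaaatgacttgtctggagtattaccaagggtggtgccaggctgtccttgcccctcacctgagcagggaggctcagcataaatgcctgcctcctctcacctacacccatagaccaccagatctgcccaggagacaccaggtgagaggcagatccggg

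The Saa3 window held 4 C/EBP matches, starting at −216, −191, −129 and −99 from its start. It also held an NF-kappaB match at −187, which overlapped the C/EBP match before it, so both appear as 1 run of capitals. Saa4 held C/EBP matches at −245 and −52, Saa1 at −182 and −86, and Saa2 at −183. The windows of Saa1 and Saa2 were 95.3% identical over 301 aligned columns, and the C/EBP match that Saa1 has nearer its start was not found in Saa2. The Saa3 window was 47.9% identical to that of Saa1 and 40.1% identical to that of Saa4.

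Promoters of 8 of the 10 genes were in the table, those of Orm1 and Hp not among them. A C/EBP match was found in 7 of these 8 windows and in 40.7% of all 32851 mouse promoters in the table. An NF-kappaB match was found in 1, that of Saa3, and in 5.82% of all. TTCNNNGAA, a STAT motif, was found in 1, that of Apcs at −244, and in 8.30% of all. These are matches of letters and not measured binding sites. A single form of each motif was searched, so sites of another length or spelling were not counted. The Saa1 window, for example, holds ggagtTTTCC, which has an added base between the GG and the TTTCC of the NF-kappaB motif.

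Saa1 and Saa2 encode the main acute phase serum amyloid A proteins of liver, which travel on high-density lipoprotein. Their coding sequences were 95.1% identical, with 18 differing columns over 369 bases, and their transcripts shared an identical run of 99 bases (GENCODE M21 transcripts, GRCm38). The 60 coding bases from 90 to 149 hold 7 of those differences and are given because reads outside such stretches may match both genes. Capitals mark the bases that differ.
Saa1 coding bases: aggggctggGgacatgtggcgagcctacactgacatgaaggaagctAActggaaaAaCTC
Saa2 coding bases: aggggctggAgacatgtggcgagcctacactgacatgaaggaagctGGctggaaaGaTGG

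Levels are given as CPM, read counts scaled to a common library total with TMM factors. Saa3 stood at 32.3, 18.6 and 22.4 CPM in WT replicates 1, 2 and 3 and at 101, 103 and 54.4 CPM in Pak4_KO replicates 1, 2 and 3. Every Pak4_KO library lay above every WT library, and Pak4_KO replicate 3 lay nearest to WT. The means were 24.4 ± 7.07 CPM in WT and 86.1 ± 27.4 CPM in Pak4_KO (SD, n = 3 each). The log2 fold change was 1.82 with a standard error of 0.29 (edgeR quasi-likelihood test, adjusted p = 0.0439). These values rest on 885 to 4864 reads per library, the fewest of the 10 genes.

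The Saa3 call depended on single libraries, while its direction did not. Its log2 fold change ran from 1.66 to 2.06 over 17 alternatives. The adjusted p from edgeR was 0.0569 without WT replicate 1, 0.120 without WT replicate 2 and 0.109 without WT replicate 3. It was 0.117 without Pak4_KO replicate 1, 0.210 without Pak4_KO replicate 2 and 0.0306 without Pak4_KO replicate 3. The lncRNA gene Gm31882 overlaps the annotated span of Saa3 by 722 bases and held 0 to 42 reads per library.

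Saa4, a serum amyloid A protein that liver makes largely without a stimulus, had 226, 296 and 231 CPM in the WT libraries and 156, 119.7 and 165 CPM in the Pak4_KO libraries. The groups did not overlap, with Pak4_KO replicate 2 lowest. Its log2 fold change was −0.77 with a standard error of 0.17 (edgeR adjusted p = 0.162). Saa2 had 2443, 2798 and 3627 CPM in WT and 1361, 2179.6 and 1630.3 CPM in Pak4_KO. The highest Pak4_KO library, replicate 2, stayed below the lowest WT library, replicate 1. The Saa2 log2 fold change was −0.78 with a standard error of 0.23 (edgeR adjusted p = 0.315).

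Saa1 had 2085, 2808 and 2965 CPM in WT and 1779, 2845 and 2048 CPM in Pak4_KO. Pak4_KO replicate 2 lay within the WT range and the other Pak4_KO libraries below it. The log2 fold change of −0.24 was close in size to its standard error of 0.22 (edgeR adjusted p = 0.872). A total of 3 of the 10 genes did not overlap between groups, against 13.4% of all tested genes. The 2 that were lower in every Pak4_KO library, Saa2 and Saa4, stand against 6.06% of all tested genes. DESeq2's Wald test called 3 of the 10, which were Saa3 (adjusted p = 9.81e-08), Saa4 (0.0043) and Saa2 (0.0317), where it called 2.06% of all genes it tested.

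**Figure D1:**
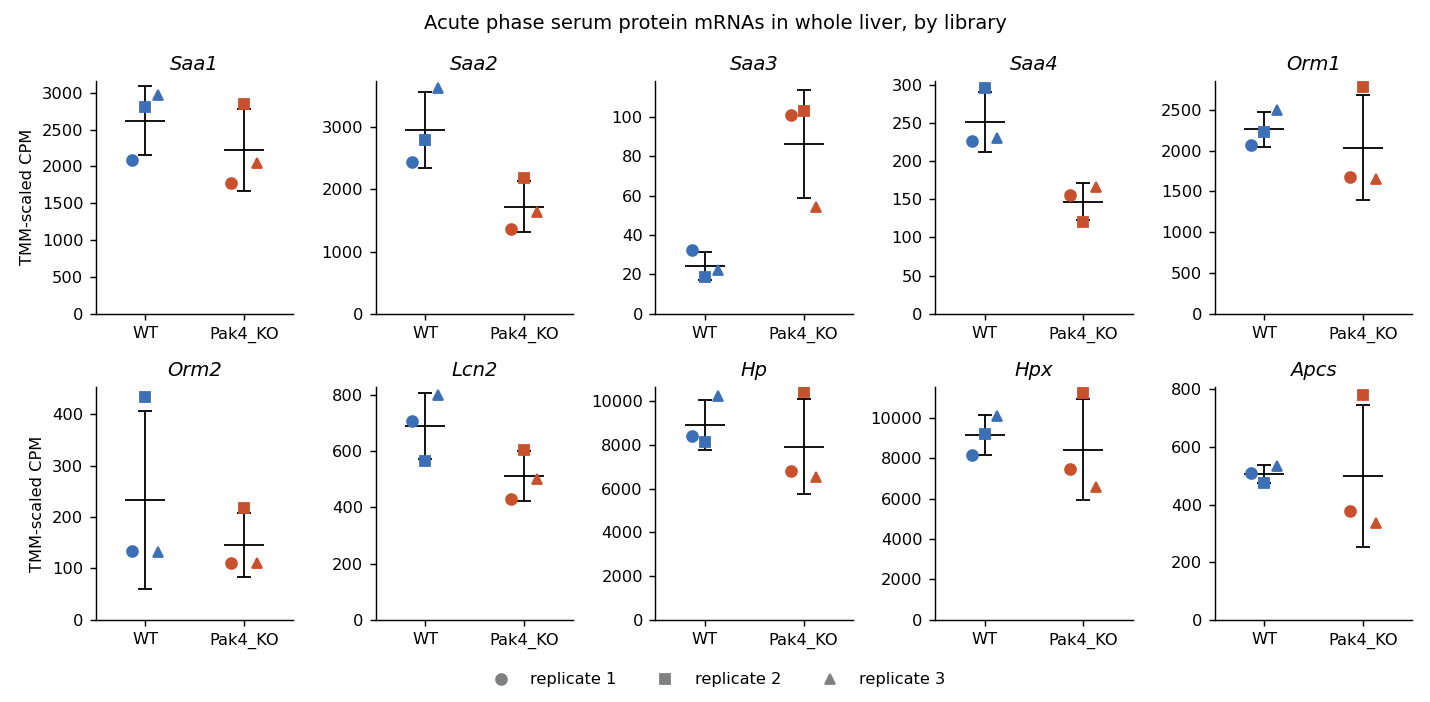
TMM-scaled CPM of the 10 genes in each library (y axis, linear from 0, a separate scale for each gene), with WT in blue and Pak4_KO in orange, symbols for the replicate number, and horizontal bars with whiskers for the mean ± SD of 3 libraries. Saa3 separates upward in Pak4_KO, from 54.4 to 103 CPM against 18.6 to 32.3 CPM, Saa2 and Saa4 separate downward, and the other 7 genes overlap.

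The split of reads between Saa1 and Saa2 did not overlap between the groups. Saa1 made up 46.1% (Wilson 95% interval 45.8 to 46.3), 50.1% (49.9 to 50.3) and 44.98% (44.8 to 45.1) of the reads of the pair in WT replicates 1, 2 and 3. In Pak4_KO it made up 56.7% (56.4 to 56.9), 56.6% (56.4 to 56.8) and 55.7% (55.5 to 55.9). All 3 Pak4_KO libraries lay above all WT libraries, and they lay closer to each other than the WT libraries did.

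The mean share was 47.0 ± 2.69% in WT and 56.3 ± 0.553% in Pak4_KO (SD, n = 3 each), a difference of 9.28 percentage points. An exact permutation test, two-sided, gave p = 0.1, the smallest that 3 against 3 libraries allow. From the deposited TPM, which account for gene length, the difference was 9.60 points. The intervals cover counting error only, and how reads that match both genes were assigned is not given in the sources used here.

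A sum of both genes does not depend on how reads were split between them, although reads left out or counted for both genes would still change it. Saa1 and Saa2 together had 5576 ± 1033 CPM in WT and 3947 ± 971 CPM in Pak4_KO, with overlapping groups. The log2 fold change of the sum was −0.50 with a standard error of 0.23 (edgeR adjusted p = 0.631).

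**Figure D2:**
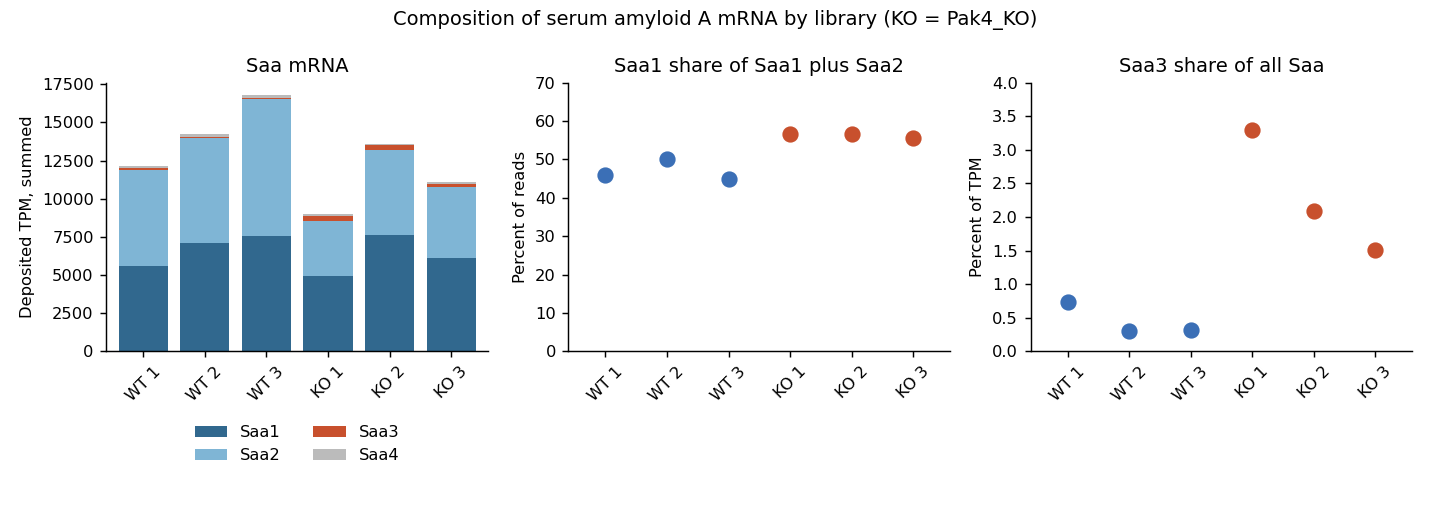
Left, summed TPM of the serum amyloid A genes in each library, stacked by gene; middle, the share of Saa1 in the reads of Saa1 plus Saa2; right, the share of Saa3 in the TPM of all 4 genes, with WT in blue and Pak4_KO in orange and 1 point per library. The Saa1 share runs from 44.98 to 50.1% in WT and from 55.7 to 56.7% in Pak4_KO, and the Saa3 share from 0.305 to 0.732% and from 1.504 to 3.29%.

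Saa3 remained a small part of serum amyloid A mRNA in both groups. It made up 0.305 to 0.732% of the TPM of the 4 genes in the WT libraries and 1.504 to 3.29% in the Pak4_KO libraries. The summed TPM of the 4 genes ran from 12176 to 16775 in WT and from 8983 to 13601 in Pak4_KO, which overlap.

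The orosomucoids, or alpha-1-acid glycoproteins, are lipocalins that carry small hydrophobic molecules in plasma. Orm1, Orm3 and Orm2 lie in that order on chromosome 4, between positions 63344556 and 63365877. Orm1 had 2063, 2227 and 2491 CPM in WT and 1669.7, 2782 and 1654 CPM in Pak4_KO. Pak4_KO replicate 2 was the highest of the 6 libraries and the other Pak4_KO libraries were the lowest. Its log2 fold change was −0.15 with a standard error of 0.23 (edgeR adjusted p = 0.936).

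Orm2 had 134, 434 and 133 CPM in WT and 110.2, 217 and 109.7 CPM in Pak4_KO. WT replicate 2 stood above all other libraries, and the groups overlapped. The log2 fold change was −0.68 with a standard error of 0.48 (edgeR adjusted p = 0.806), and it was 0.13 without WT replicate 2, so the direction rests on that library. Orm1 made up 83.7% of the reads of Orm1 plus Orm2 in WT replicate 2 (Wilson 95% interval 83.5 to 83.9) and 92.8 to 94.9% in the other 5 libraries. The difference of the group means was 2.60 points, and the exact two-sided permutation test gave p = 1.

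The third copy, Orm3, was not among the 10 genes but shares 86.1% of its aligned coding columns with Orm1 and 88.0% with Orm2. Orm3 stood at 20.3, 52.9 and 26.4 CPM in WT and at 11.04, 12.7 and 12.8 CPM in Pak4_KO, without overlap. WT replicate 2 was again the highest. Its log2 fold change was −1.44 with a standard error of 0.32 (edgeR adjusted p = 0.168), and −0.94 without WT replicate 2. Summed, the 3 copies reached 2527 ± 270 CPM (SD, n = 3) in the WT libraries and 2193 ± 709 in the Pak4_KO libraries, with a log2 fold change of −0.20 with a standard error of 0.23 (edgeR adjusted p = 0.904).

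Lcn2, on chromosome 2, encodes a lipocalin that binds bacterial iron carriers and is stored in neutrophil granules as well as made by hepatocytes. Its level was 707, 566 and 799 CPM in WT and 430.0, 604 and 499.8 CPM in Pak4_KO. Only Pak4_KO replicate 2 reached into the WT range. The log2 fold change was −0.43 with a standard error of 0.18 (edgeR adjusted p = 0.586).

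Hp encodes haptoglobin, which binds free haemoglobin, and Hpx encodes hemopexin, which binds free haem; both were the most abundant of the 10. Hp had 8403, 8119 and 10236 CPM in WT and 6805, 10401 and 6526 CPM in Pak4_KO. Hpx had 8161, 9196 and 10113 CPM in WT and 7453, 11264 and 6574 CPM in Pak4_KO. In each gene, Pak4_KO replicate 2 was the highest of all libraries and the other Pak4_KO libraries were the lowest. The log2 fold changes were −0.17 with a standard error of 0.22 for Hp and −0.12 with a standard error of 0.23 for Hpx (edgeR adjusted p = 0.924 and 0.953). That of Hpx changed sign, to 0.030, without Pak4_KO replicate 3.

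Apcs encodes serum amyloid P, the pentraxin that serves in mice as a major acute phase protein. It had 509, 474 and 536 CPM in WT and 377, 781 and 337 CPM in Pak4_KO. The WT libraries lay close together, while Pak4_KO replicate 2 was above and the other Pak4_KO libraries below all of them. The coefficient of variation was 6.10% in WT and 49.4% in Pak4_KO. The log2 fold change was −0.023 with a standard error of 0.30 (edgeR adjusted p = 0.998), and it took either sign when libraries were left out.

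**Figure D3:**
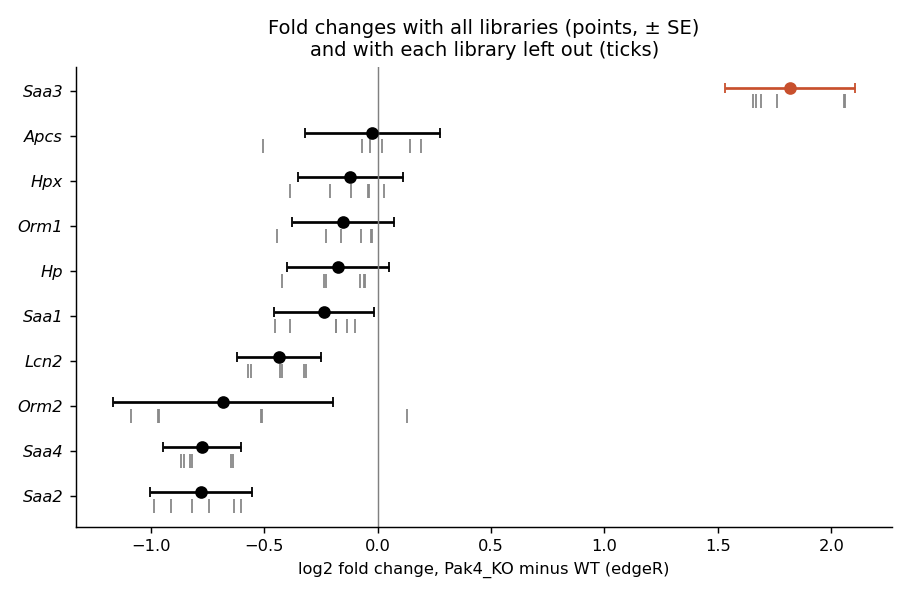
Log2 fold change of each gene, Pak4_KO minus WT, from edgeR (points, with bars for ± SE; orange for the called gene) and from the same fit with each library left out in turn (grey ticks). Saa3 keeps values from 1.66 to 2.06, the ticks of Saa2 and Saa4 stay below 0, and those of Orm2, Hpx and Apcs lie on both sides of 0.

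A single library was high for most of the set. Pak4_KO replicate 2 held the highest value of its group for 9 of the 10 genes, Saa4 being the exception. It held the highest value of all 6 libraries for 5, which were Saa3, Orm1, Hp, Hpx and Apcs. Within WT, replicate 3 held the highest value for 7 of the 10.

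The log2 fold changes were negative for 9 of the 10 genes and positive for Saa3, where 49.3% of all tested genes were negative. An unadjusted edgeR p under 0.05 was reached by 4, which were Saa2, Saa3, Saa4 and Lcn2, against 8.21% of all tested genes. The median of all 10 was −0.20, against 0.0045 for all tested genes. It was −0.48 without Pak4_KO replicate 2, a library picked after its high values were seen. With each of the other libraries left out in turn, the median ran from −0.31 (without WT replicate 1) to −0.087 (without Pak4_KO replicate 1). Pak4_KO replicate 2 and the other libraries were counted to 39603272 to 52521400 reads in all. In bulk tissue, fewer cells of a type and less RNA per cell cannot be told apart.

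**Figure D4:**
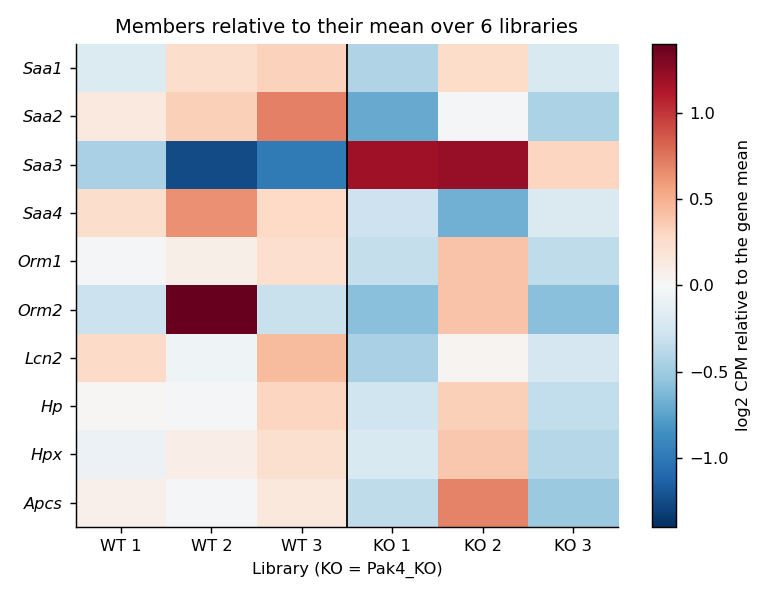
Log2 CPM of the 10 genes in each library relative to the gene's mean over the 6 libraries (colour scale, red higher and blue lower; the black line separates WT from Pak4_KO). Saa3 is blue in every WT library and red in every Pak4_KO library, from −1.25 in WT replicate 2 to 1.22 in Pak4_KO replicate 2, and Pak4_KO replicate 2 is above the gene mean for Saa1, Orm1, Orm2, Lcn2 (by 0.038), Hp, Hpx and Apcs, where the other Pak4_KO libraries are below it.

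Levels of different genes were set side by side in the deposited TPM. In WT the order was Hp (10947 ± 1312 TPM), Hpx (10152 ± 818), Saa2 (7391 ± 1406), Saa1 (6755 ± 1044), Orm1 (4763 ± 350.0), Lcn2 (1332 ± 234), Apcs (846 ± 61.8), Orm2 (492 ± 356), Saa4 (196 ± 26.7) and Saa3 (61.7 ± 24.2, SD, n = 3). The neighbours Hp and Hpx, Saa2 and Saa1, and Apcs and Orm2 overlapped in this order, and the others did not.

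In Pak4_KO, Saa1 (6234 ± 1336 TPM) stood above Saa2 (4623 ± 1000.3), and Saa3 (248.97 ± 71.3) stood above Saa4 (123 ± 26.1, SD, n = 3). The TPM ranges of Saa1 and Saa2 overlapped there, while those of Saa3 and Saa4 did not. The 10 genes together made up 3.95, 4.14 and 4.80% of all TPM in the WT libraries and 3.19, 4.79 and 3.42% in the Pak4_KO libraries.

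Genes around the members were read from the same fit, since the sign of Saa3 was opposite to that of the other serum amyloid A genes. Within 1 Mb of the serum amyloid A cluster, 22 other genes were tested, and 1 was called. This was Uevld, a gene related to ubiquitin-conjugating and lactate dehydrogenase enzymes, which fell from 10.8 ± 0.965 to 4.41 ± 0.378 CPM (log2 fold change −1.29, standard error 0.17, edgeR adjusted p = 0.0169). The Uevld call was lost without WT replicate 1 (edgeR adjusted p = 0.0777), Pak4_KO replicate 2 (0.109) or Pak4_KO replicate 3 (0.0949), and in the TPM fits of limma-trend with a pseudocount of 1 (0.115) or 0.1 (0.0982). Saal1, which borders Saa3, had a log2 fold change of 0.10 and Hps5, which borders Saa2, of 0.19, neither called. Gm31882, the lncRNA gene that overlaps Saa3, had 1.05 with a standard error of 0.86 (edgeR adjusted p = 0.840). The log2 fold change was positive for 14 of the 22 neighbours and negative for 8. Between the groups, 6 of the 22 did not overlap, against 13.4% of all tested genes.

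Around the Apcs gene on chromosome 1, 34 genes were tested and Ifi208, an interferon-inducible gene, was called. Ifi208 rose from 0.459 ± 0.193 to 3.71 ± 1.49 CPM (log2 fold change 3.02, standard error 0.43, edgeR adjusted p = 0.0272). The Ifi208 call was lost without WT replicate 2 (edgeR adjusted p = 0.0920), WT replicate 3 (0.0716), Pak4_KO replicate 1 (0.0814) or Pak4_KO replicate 2 (0.147). Ifi208 was also not called by limma-voom (adjusted p = 0.0662) or by limma-trend on log2(TPM + 1) (0.0891). Of the 20 genes around Orm1 and Orm2, 42 around Lcn2, 15 around Hp and 25 around Hpx, edgeR called 0. DESeq2's Wald test called 1 around the orosomucoids, Orm3, and 1 around Lcn2, Slc25a25, and 0 around Hp and Hpx.

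**Figure D5:**
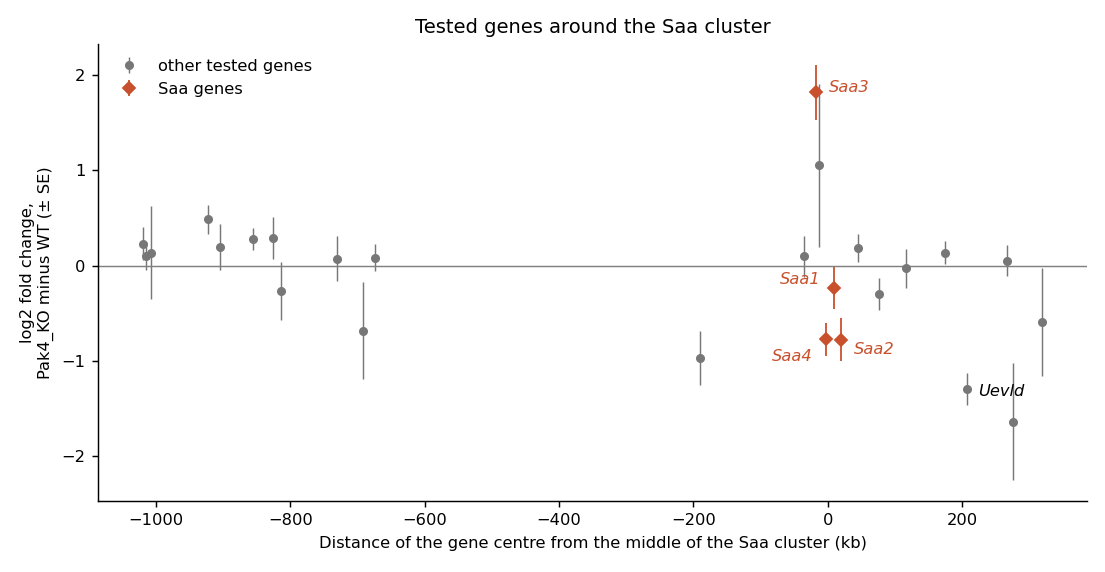
Log2 fold change, Pak4_KO minus WT, with ± SE (y axis) of the serum amyloid A genes (orange diamonds) and the 22 other tested genes within 1 Mb (grey points), by distance of the gene's centre from the middle of the cluster in kb. Saa3 is at 1.82 while Saa4, Saa1 and Saa2 lie between −0.78 and −0.24, and Uevld, at −1.29, is the called gene among the others.

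By a rule of likeness, the genes closest to Saa3 across the 6 libraries were Txnip, Tg and Plat. Their centred log2 CPM differed from that of Saa3 by a root mean square of 0.205, 0.293 and 0.358, where that of Saa3 itself had a root mean square of 0.976. The rule used these same values, so higher levels of these genes in Pak4_KO follow from the choice and are no separate result. Txnip, a thioredoxin-binding protein, rose from 140 ± 29.8 to 512 ± 107 CPM (log2 fold change 1.87, standard error 0.22, edgeR adjusted p = 0.0093). The Txnip call was lost without Pak4_KO replicate 2 (edgeR adjusted p = 0.0605). Tg, at 0.253 to 1.59 CPM, and Plat, at 0.855 to 3.37 CPM over the 6 libraries, were not called by edgeR (adjusted p = 0.249 and 0.255), while DESeq2's Wald test called Plat (adjusted p = 0.0414).

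The other genes of the response were counted by list, in 10 lists with the cell type markers. The counts at an unadjusted p under 0.05 are to be read against the 8.21% of all tested genes. DESeq2's Wald test called Orm3, Hamp2, Cd36, Lrp2, Cxcr2, S100a9, Plin4 and Pkhd1 of these lists, each with the sign that edgeR gave, and limma-voom called 0. Over all genes it tested, DESeq2's Wald test called 2.06%. Of 23 tested further genes whose liver mRNA is known to increase in the acute phase, 0 were called by edgeR, with a median log2 fold change of −0.019 and 4 at an unadjusted p under 0.05. Without Pak4_KO replicate 2 that median was −0.22. Besides Orm3, the smallest p in the list was that of Hamp2, a hepcidin gene, which averaged 1.63 ± 0.763 CPM over WT and 3.99 ± 0.305 CPM over Pak4_KO libraries (log2 fold change 1.28, edgeR adjusted p = 0.249).

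Of the 13 negative acute phase proteins, whose mRNA is known to decrease in the response, edgeR called 0, with a median of −0.094 and 1 at an unadjusted p under 0.05. The growth factor Igf1 had a log2 fold change of −0.36 (edgeR adjusted p = 0.596) and Itih2, an inter-alpha-inhibitor heavy chain, of 0.38 (0.624).

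The signalling genes upstream of the set gave no call either. Of 16 tested genes of IL-6 family signalling, edgeR called 0, with a median of −0.065 and 0 at an unadjusted p under 0.05. Cish, a feedback inhibitor of STAT signalling, stood at 12.4, 5.53 and 5.37 CPM in WT and at 12.5, 12.4 and 12.8 CPM in Pak4_KO (log2 fold change 0.70, edgeR adjusted p = 0.627). WT replicate 1 was at the Pak4_KO level. The kinase Jak1 had a log2 fold change of −0.28 (edgeR adjusted p = 0.644).

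Of 25 genes of IL-1, TNF, NF-kappaB and C/EBP signalling, edgeR called 0, with a median of −0.14 and 1 at an unadjusted p under 0.05. This was Il1r2, a decoy receptor for IL-1, at −1.25 (adjusted p = 0.517). Tsc22d3, a glucocorticoid-induced gene, had a log2 fold change of −0.58 (edgeR adjusted p = 0.617).

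Of 18 receptors and partners of the member proteins, edgeR called 0, with a median of −0.12 and 3 at an unadjusted p under 0.05. Cd36, a scavenger receptor for lipids that also binds serum amyloid A, had 24.1, 31.4 and 36.1 CPM in WT and 64.0, 61.1 and 129 CPM in Pak4_KO (log2 fold change 1.47, edgeR adjusted p = 0.119). Lrp2, which takes up lipocalins in kidney, had 0.400 to 2.40 CPM over the 6 libraries (log2 fold change −1.69, edgeR adjusted p = 0.235).

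Other cell types can contribute Saa3 and Lcn2 mRNA, so their markers were read beside these genes. Of 12 Kupffer cell and macrophage markers, 11 had negative log2 fold changes with a median of −0.21, edgeR called 0, and 2 had an unadjusted p under 0.05. Their summed level, scaled to library totals without TMM factors as in the lists that follow, was 435 to 563 CPM in WT and 371 to 529 CPM in Pak4_KO, which overlap; their part in the Saa3 values was not tested. Cd68 had a log2 fold change of −0.66 and Cd5l of −0.39 (edgeR adjusted p = 0.492 and 0.556).

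Of 9 adipocyte markers, 4 were tested, all with positive values and a median of 0.70; edgeR called 0, and 2 had an unadjusted p under 0.05. Their summed level over the list was 97.0 to 139 CPM in WT and 179 to 253 CPM in Pak4_KO, without overlap and in the direction of Saa3. The part of fat cells in the Saa3 values was not tested. Adipoq and Lep, which define fat cells, had 0 reads in all 6 libraries and Plin1 had 7 reads in all. Plin4 carried most of that sum, at 53.3 to 121 CPM in WT and 140 to 192 CPM in Pak4_KO (edgeR adjusted p = 0.326). Cfd had 0, 5 and 0 reads in WT and 10, 146 and 131 reads in Pak4_KO (edgeR adjusted p = 0.138), and it was called without Pak4_KO replicate 1 (adjusted p = 0.0339).

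Of 13 neutrophil markers, 8 were tested, all with negative values and a median of −0.77; edgeR called 0, and 5 had an unadjusted p under 0.05. Their summed level was 65.9, 50.1 and 35.7 CPM in WT replicates 1, 2 and 3. In Pak4_KO replicates 1, 2 and 3 it was 31.9, 30.1 and 25.9 CPM, without overlap between the groups. The group difference had the direction of that of Lcn2, while within WT, Lcn2 was highest in replicate 3, where this sum was lowest. The part of these markers' cells in the Lcn2 values was not tested. Cxcr2 had a log2 fold change of −1.30 and S100a9 of −0.86 (edgeR adjusted p = 0.137 and 0.243). The 5 untested granule genes had 12 reads (Camp), 16 (Elane), 24 (Mpo), 49 (Ngp) and 122 (Ltf) over all 6 libraries. Of the Ltf reads, 87 were in Pak4_KO replicate 1, against 6, 16 and 10 in the WT libraries and 3 and 0 in the other Pak4_KO libraries.

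Of 9 cholangiocyte markers, 8 had positive values with a median of 0.75, edgeR called 0, and 3 had an unadjusted p under 0.05. Their summed level was 40.5 to 61.7 CPM in WT and 57.8 to 93.9 CPM in Pak4_KO. Pkhd1 had a log2 fold change of 0.59 and Epcam of 0.97 (edgeR adjusted p = 0.243 and 0.344).

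The 10 hepatocyte markers, at 59015 to 71847 CPM in WT and 69903 to 77153 CPM in Pak4_KO, had a median of −0.082, with 0 called by edgeR and 0 at an unadjusted p under 0.05. Serpina1a had a log2 fold change of −0.36 and Cyp2e1 of −0.29 (edgeR adjusted p = 0.650 and 0.729). Pak4, the targeted gene, averaged 6.51 ± 0.615 CPM over WT and 1.84 ± 0.441 CPM over Pak4_KO libraries, in the direction of the labels (log2 fold change −1.82, edgeR adjusted p = 0.0169). The Pak4 call was lost without WT replicate 1 (edgeR adjusted p = 0.0562), WT replicate 2 (0.0608) or Pak4_KO replicate 3 (0.0936).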

How the data were processed

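Poly(A) RNA of liver was sequenced from 1 µg of total RNA with a strand-specific TruSeq kit, per the labels' protocols. Build mm10 is named in the submitters' processing notes, as are the aligners HISAT2 2.1.0 and Bowtie2 2.3.4.1. For assembly and reads they name StringTie 2.1.3b, with bcl2fastq 2.20.0 and FastQC 0.11.7. Neither the strand setting nor the handling of reads with several matches is given in the sources used here. Whole read counts per gene were deposited by the authors without normalization, per the file headers. Their table also holds FPKM, deposited by the authors and not used in a test, and TPM, deposited by the authors, used for levels between genes and in 2 alternatives. Genes with 2 reads outnumbered those with 1 read in each library, so both mates of a pair may be counted and counting error may be larger than the totals imply.

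RefSeq GRCm38.p6 gave positions for 45679 of 45777 genes. The count model was that of edgeR 4.0.16 (R 4.3.3): filterByExpr with the group left 16197 genes, with TMM factors, glmQLFit and glmQLFTest, two-sided, and Benjamini-Hochberg adjustment over all tested genes. A gene was called at an adjusted p under 0.05. A standard error is the log2 fold change over the square root of F. CPM were computed from the deposited counts. The procedure was tested on simulated data.

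The members and gene lists were chosen with earlier results of these data known. Named are the members, Pak4, called neighbours, the 3 established genes most like the called member, and from each list up to 4 called genes or the 2 with the smallest p. Saal1, Hps5, Slc25a25, Gm31882, Plin1, Adipoq, Lep and the 5 untested neutrophil genes were named after their values were seen. Alternatives were DESeq2 1.42.0 size factors or its Wald test, upper quartile factors, library size only, no filter, at least 10 reads in every library, limma 3.58.1 (voom, and trend on log2(TPM + 1) or log2(TPM + 0.1)), robust edgeR, a replicate block, and leaving out each library in turn. Protein identities were not computed; coding sequences were compared in their place.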

Additional observations from a re-analysis of the deposited data

How the results depend on the processing

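Of the 17 alternatives, 10 kept the Saa3 call; it was lost with at least 10 reads in every library (edgeR adjusted p = 0.0503), with limma-voom (0.0535) and without 5 of the 6 libraries, as given above. The number of the 10 genes called was 0 under those settings, 3 with the DESeq2 Wald test, and 0 to 1 with a library left out. Over all genes, 76 were called, against 44 with at least 10 reads in every library, 334 with the DESeq2 Wald test and 37 to 81 with a library left out; the cause was not tested. The sign turned for Orm2 without WT replicate 2 (0.13; −1.09 to 0.13 with a library left out) and for Hpx without Pak4_KO replicate 3 (0.030; −0.38 to 0.030). It turned for Apcs with library size only (0.014) and without WT replicate 3 (0.021), Pak4_KO replicate 1 (0.14) or Pak4_KO replicate 3 (0.19), with −0.50 to 0.19 over libraries left out. The other 7 genes kept their sign under all 17. The summed copies kept their sign and stayed uncalled, from −0.71 to −0.36 for Saa1 plus Saa2 and from −0.50 to −0.075 for the orosomucoids with a library left out. The count of 3 genes without overlap was the same in TPM. Deviations from the group means correlated at 0.0669, −0.201 and 0.147 between samples with the same replicate number. Not every sample correlated best with its own number. Such deviations depend on one another within a group of 3 libraries, so they cannot decide whether the numbers pair the samples. With the replicate block in edgeR, 73 genes and 1 of the 10, Saa3, were called (adjusted p = 0.0308). The log2 fold changes of the summed copies were then −0.51 and −0.25. The block also called Cd36 (adjusted p = 0.0391) and Cfd (0.0267). List medians without Pak4_KO replicate 2 were an alternative chosen after seeing the data; besides those given above, the median of the Kupffer cell and macrophage markers was −0.064 without that library, and no list median of the 11 changed sign. With 3 libraries in each group, the exact permutation tests could not go below p = 0.1.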
